A study of Danio rerio with 2 samples.

Results

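V1-like neurons with *en1b* were 170 of the 10596 cells in 2 droplet single-cell RNA-seq libraries of zebrafish trunk, 52 in library 1 and 118 in library 2. They were selected on measured unique molecular identifiers (UMIs), each of which stands for a captured RNA molecule. A cell had to pass quality limits (500 to 2500 detected genes, at most 12000 UMIs and at most 6% mitochondrial UMIs) and hold at least 1 UMI each of *en1b* and *elavl3*. It also had to hold 0 UMIs of 5 genes that mark other spinal fates, *gata2a*, *gata3* and *tal1* (V2b and KA neurons) and *dmrt3a* and *lbx1a* (dI6 and dI4 neurons). Of the 8127 cells within the limits, 6482 held *elavl3*, the RNA-binding protein gene of new neurons. Levels of *en1b*, *elavl3* and these 5 genes are therefore descriptions of the choice and were not tested.

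The cells came from embryos at 48 h, produced by crossing parents that were evx1i232/+;evx2sa140/+ with each other. All embryos carried Tg(evx1:EGFP)SU2, in which *evx1* regulatory sequence drives EGFP to label V0v interneurons, and EGFP-positive trunk cells were FAC-sorted and fixed in methanol. WT, heterozygous and mutant embryos were pooled and no cell carries a genotype, so that V1-like cells of different genotypes cannot be told apart. The libraries have the same labels apart from their titles (OtherGFP and AllGFP, which are not explained), and they were treated as 2 replicates of 1 group, although no source says whether they came from separate clutches. The p-values below therefore measure only how evenly differences between sets of cells repeat in these 2 libraries, whose spread may be technical. The transgene follows *evx1*, not *en1b*, and is also expressed ectopically to a varying degree. The labels call all sorted cells V0v spinal interneurons, and whether the cells described here arose as V0v or as V1 neurons cannot be told apart. EGFP itself was not analysed here.

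V1 interneurons arise from the p1 domain of the ventral neural tube, directly below the p0 domain that gives rise to V0v cells. They express the homeodomain gene *En1*, project axons on their own side of the cord and inhibit motoneurons and other interneurons, mostly through glycine. In mouse they diversify into Renshaw cells, Ia inhibitory interneurons and further subtypes, each marked by other transcription factors. In zebrafish, *en1b* marks circumferential ascending (CiA) neurons, glycinergic cells that take part in both sensory gating and the swimming rhythm.

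In the text, pairs of values give library 1 first and library 2 second, and levels are UMIs per 1000000 UMIs of the summed cells (CPM). The V1-like cells held a median of 3173.5 and 4041.5 UMIs, less than the 4328 and 4945 UMIs of the evx glutamatergic cells described below. The 2 libraries shared 3 cell barcodes, of which 0 belonged to V1-like cells. Library 1 stood apart by its heat-shock RNA. All neurons together had 6082 and 46.1 CPM of *hsp70l*, and the V1-like cells had 8259 and 49.2 CPM. Differences between gates were therefore taken within libraries, with the library as a term of the fit.

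V1-like cells made up 1.59% of the *elavl3* cells of library 1 (52 of 3263, exact 95% binomial interval 1.19 to 2.08) and 3.67% of those of library 2 (118 of 3219, interval 3.04 to 4.37). Intervals here cover counting error only. Their *en1b* UMIs summed to 210 and 624, with 1 to 19 and 1 to 25 UMIs per cell and medians of 3 and 4. Just inside the rule were 13 and 22 cells with a single *en1b* UMI, of which 5 and 8 held *foxd3* and 4 and 8 held *slc6a5*. Among the 30 and 82 cells with 3 or more *en1b* UMIs, 23 and 62 held *foxd3* and 24 and 70 held *slc6a5*. Just outside the rule, 1 and 2 neurons held *en1b* with a UMI of the 5 excluded genes. Another 6 and 44 cells held *en1b* without *elavl3*, and 2 and 37 of these were fibroblast-gated (no *elavl3* and at least 5 UMIs of *col1a1a*, *col1a1b* and *col1a2*). The fibroblast-gated cells, 66 and 727 in all, had 19.0 and 30.0 CPM of *en1b*, and the V1-like cells, as the rule selected them, had 1183 and 1279 CPM.

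**Figure D1:**
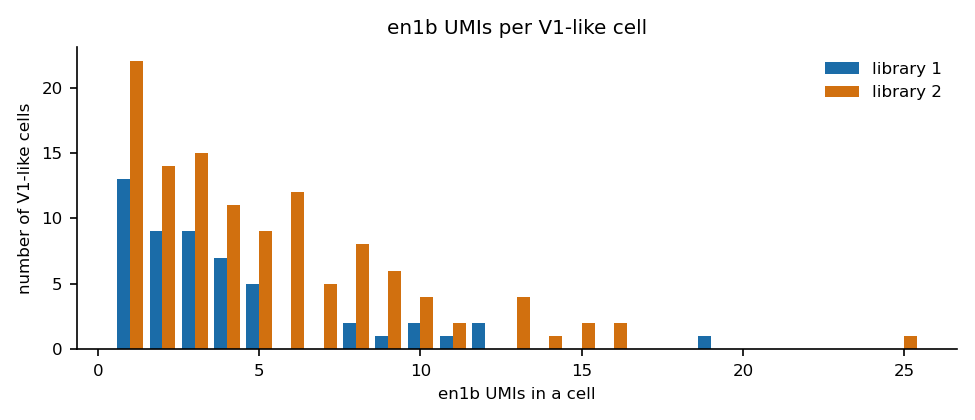
Number of V1-like cells (y axis) with each number of *en1b* UMIs in a cell (x axis), with a bar for each library. The counts start at 1 because the rule required it and fall off towards 19 UMIs in library 1 and 25 UMIs in library 2.

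To place these cells, 4 sets of *elavl3* neurons without *en1b* were taken from the same libraries. The evx glutamatergic cells (706 and 851) held *evx1* or *evx2* and a vesicular glutamate transporter (*slc17a6a* or *slc17a6b*), without *hmx2* or *hmx3a*, the gene pattern of the V0v cells that the transgene labels. The hmx cells (569 and 495) held *hmx2* or *hmx3a*. Like the V1-like cells, the evx glutamatergic and hmx cells had 0 UMIs of the 5 excluded genes. The V2b/KA-like cells (64 and 92) held *gata2a*, *gata3* or *tal1*, and the dI6/dI4-like cells (68 and 216) held *dmrt3a* or *lbx1a*, and neither held a gene that formed the other. The last 2 sets together served as other-fate cells, each weighted equally. The 13 genes used to form the sets were left out of all calls.

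Most of the cells held further genes used as markers of V1 neurons. *foxd3* and *slc6a5* were known as markers of these cells from earlier results of these data. Their levels therefore describe the cells and do not test the name. *foxd3*, a forkhead gene of V1 interneurons and of neural crest, had 631 and 709 CPM in V1-like cells, in 34 of 52 and 82 of 118 cells. It had 3.57 and 2.15 CPM in evx glutamatergic cells, 11.8 and 119.7 CPM in hmx cells, 0 and 4.62 CPM in V2b/KA-like cells and 0 and 4.36 CPM in dI6/dI4-like cells. The V1-like cells were thus the highest in both libraries. Of the 3 neural crest markers, *crestin* and *tfap2a* were at 0 UMIs in V1-like cells and *sox10* had 0 and 16.4 CPM, 8 UMIs in 2 cells of library 2. Pooled over both libraries, *sox10* was at a ratio of 29.1 (95% interval 6.99 to 170, counting error only) to evx glutamatergic cells, which had 3 UMIs. *sox10* was called higher than in evx glutamatergic cells, a difference that rests on those 2 cells, and was not called against hmx or other-fate cells. Its part in the *foxd3* level was not tested. At least 1 UMI of *foxd3*, *pax2a* or *slc6a5* was held by 46 of 52 and 105 of 118 cells (88.5% and 89.0%). This share was not taken in the other gates, which also held *slc6a5* and *pax2a*. Both *foxd3* and *slc6a5* were held by 26 and 69 cells (50.0% and 58.5%). Of the 21 markers of other spinal neurons, among them motoneuron, V2a, V3 and dI5 genes, 16 were at 0 UMIs in V1-like cells, including the 5 that the rule had set to 0. The UMIs of *en1a* are described with the collagen genes below. Of the notochord, skin, muscle and blood markers, 6 could be tested and 0 were called in any comparison, and 3 of the 4 notochord markers were at 0 UMIs.

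*slc6a5*, which encodes the glycine transporter GlyT2 of glycinergic neurons, had 1228 and 1345 CPM in V1-like cells. It had 47.1 and 92.8 CPM in evx glutamatergic cells, 244 and 395 CPM in hmx cells, 430.0 and 758 CPM in V2b/KA-like cells and 788 and 1038 CPM in dI6/dI4-like cells. No gate without *en1b* reached the V1-like level in either library, and the dI6/dI4-like cells came nearest to it. *pax2a*, a paired-box gene shared by inhibitory neurons, had 248 and 479.6 CPM in V1-like cells, 188 and 257 CPM in dI6/dI4-like cells and lower levels in the other 3 gates. After each cell was thinned to 2000 UMIs, which left out 5 and 5 V1-like cells, *foxd3* was held by 55.3% and 60.2% of V1-like cells (65.4% and 69.5% before thinning) and 1.12% and 7.63% of hmx cells. *slc6a5* was held by 63.8% and 69.9% of thinned V1-like cells and 6.17% and 8.27% of evx glutamatergic cells. Fibroblast-gated cells, with medians of 5135 and 5515 UMIs, give a lower limit on the background from free RNA, since their gate required 0 UMIs of *elavl3*. After thinning, 0% and 0.143% of them held *slc6a5* and 0% and 0% held *foxd3*.

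**Figure D2:**
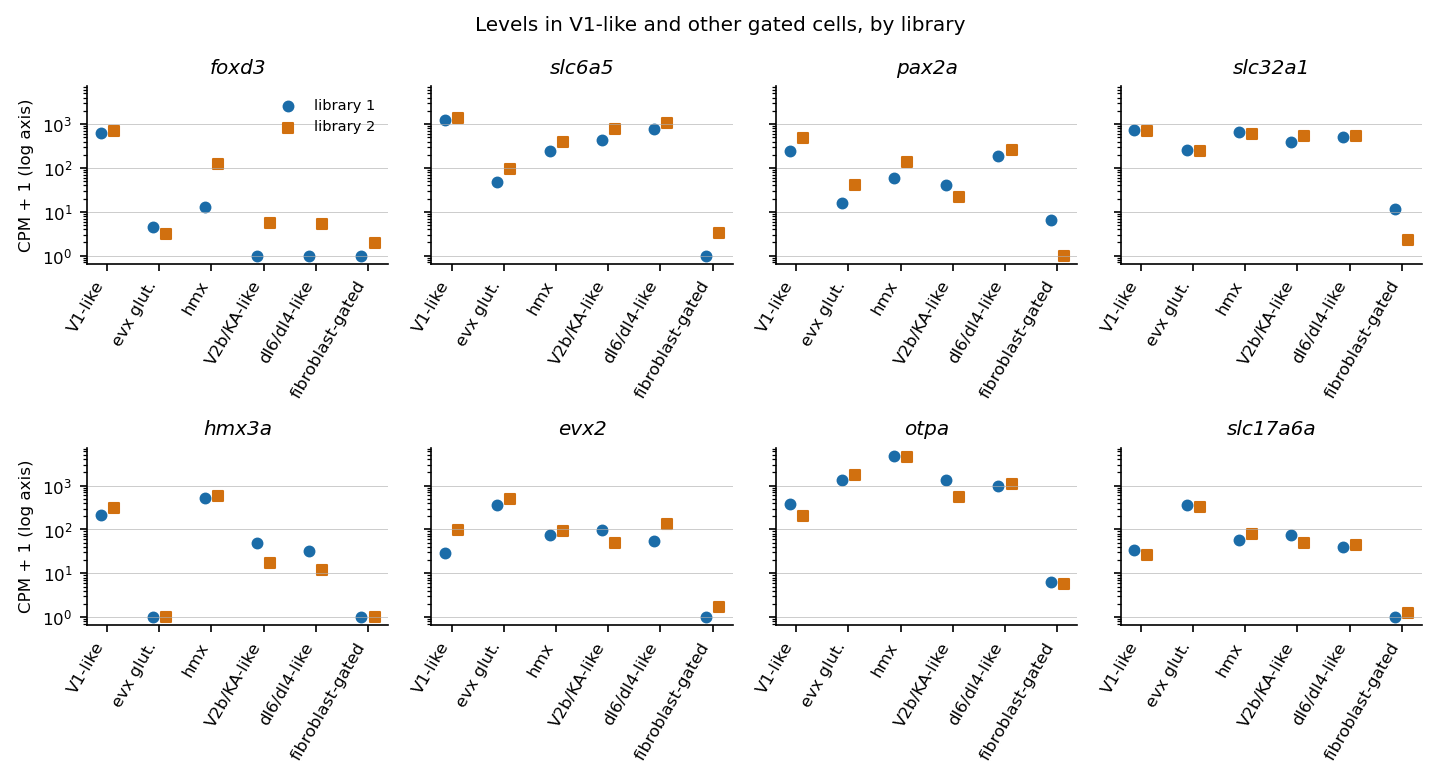
Level of 8 genes (y axis, CPM plus 1 on a log axis) in V1-like cells and 5 other gates (x axis), 1 point for each library. *foxd3* stands at 631 and 709 CPM in V1-like cells and at most 119.7 CPM in the other gates, and *slc17a6a* and *otpa* are lower in V1-like cells than in evx glutamatergic cells. The *hmx3a*, *evx2* and *slc17a6a* panels include gates that were formed by these genes.

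The transmitter genes of V1-like cells were mainly glycinergic. *slc6a5* without GABA or glutamate genes was held by 23 and 53 cells (44.2%, interval 30.5 to 58.7, and 44.9%, interval 35.7 to 54.3). *slc6a5* together with a GABA gene (*gad1a*, *gad1b*, *gad2* or the GABA transporter gene *slc6a1b*) was held by 11 and 33 cells, and GABA genes alone by 1 and 5 cells. A vesicular glutamate transporter was held by 4 and 8 cells, in 2 and 5 of them together with a glycine or GABA gene. None of these genes was seen in 13 and 19 cells, of which 9 and 6 held *slc32a1*, the vesicular transporter that loads both glycine and GABA. Each GABA gene was held by fewer cells than *slc6a5*, which was held by 35 of 52 and 88 of 118. *gad2*, a glutamate decarboxylase gene, was held by 2 of 52 and 21 of 118 cells and *slc6a1b* by 6 of 52 and 11 of 118. *gad1a* was called higher in all 3 comparisons described below. At this depth a cell without a UMI may still express these genes. *slc17a6a* had 33.8 and 24.6 CPM in V1-like cells, against 55.8 and 79.2 CPM in hmx cells and 39.2 and 43.6 CPM in dI6/dI4-like cells, neither of which was gated on it.

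**Figure D3:**
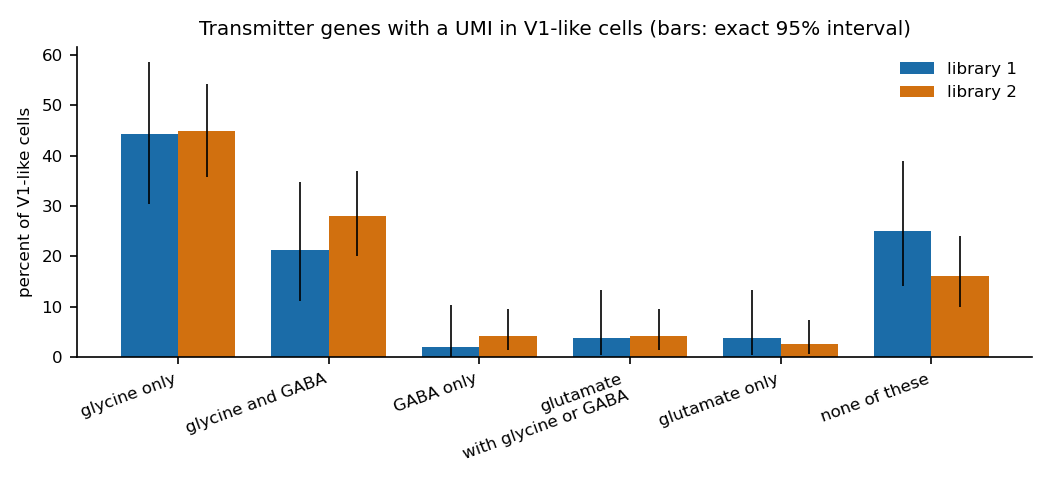
Percent of V1-like cells (y axis) whose UMIs fell into each of 6 transmitter classes (x axis), with a bar for each library and exact 95% binomial intervals. Glycine only is the largest class in both libraries, at 44.2% and 44.9%.

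Against evx glutamatergic cells, the comparison with the neurons that the transgene was made to label, 457 genes were higher and 288 lower in V1-like cells (745 of 8246 tested, 9.03%; 5.54% higher and 3.49% lower). DESeq2 called 398 higher and 154 lower, and without the library term edgeR called 439 genes. Values below are log2 fold changes ± SE with edgeR's adjusted p, and each named gene moved the same way in both libraries. The SE was derived from the test, as the size of the log2 fold change divided by the square root of edgeR's F statistic. The largest rises included *penkb* (a proenkephalin gene, precursor of opioid peptides), *adarb2* (of the RNA-editing deaminase family), *foxd3*, *htr1aa* (a serotonin receptor) and *npy2r* (a neuropeptide Y receptor). *adarb2* had 254 and 219 CPM in V1-like cells, in 20 of 52 and 46 of 118 cells, and a single UMI in all evx glutamatergic cells, a ratio of 1659 (95% interval 293 to 65954) by counting error. *npy2r* had 101 and 189 CPM in V1-like cells, against 0 and 1.2 CPM, a change of 7.66 ± 0.50 (adjusted p = 2.3e-08). The zinc transporter gene *slc30a2* had 304 and 461 CPM, against 3.25 and 1.44 CPM, a change of 7.45 ± 0.28 (adjusted p = 7.3e-12). It was held by 22 of 52 and 75 of 118 V1-like cells, and was thus more widespread than *penkb*, which was held by 9 of 52 and 6 of 118. *cacna2d3*, an auxiliary subunit of calcium channels, changed by 6.95 ± 0.31, *phyhip* by 6.82 ± 0.43 and *si:dkey-175g6.2* by 7.59 ± 0.48. *htr1aa* was held by 4 of 52 and 13 of 118 cells and *si:dkey-183i3.9* by 6 of 52 and 8 of 118, with levels of 197 and 43.0 CPM. *cxcl12a* and *lum* also rose but rested on 1 and 2 cells and on 1 and 4 cells.

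Among the lowest genes in that comparison were several with 0 UMIs in V1-like cells, so that only bounds can be given, each against a floor of 3 UMIs over all V1-like cells. *bmp16*, a BMP ligand, was at least 10.2-fold lower and *bdnf*, the neurotrophin gene, at least 4.58-fold lower. Others were *nbeab*, *BEND4*, *si:dkey-87k14.1*, *CR847531.1* and *tmem235*, with 6.49 to 26.5 CPM in evx glutamatergic cells. The call for *tmem235* was lost with DESeq2 (adjusted p = 0.12) and without the library term (adjusted p = 0.29). It was also lost after thinning to 2000 UMIs (adjusted p = 0.20) and where the 5 excluded genes were allowed (adjusted p = 0.077). The *CR847531.1* call was lost after thinning as well (adjusted p = 0.091).

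The evx glutamatergic cells were chosen by an evx gene and a glutamate transporter gene. Differences in transmitter and V0v genes therefore cannot be told apart from that choice. Of the glycine and GABA genes, which serve synthesis and transport of these transmitters, most were higher. Of 11 tested members 6 were higher and 0 lower, with a median log2 fold change of 1.53 beside -0.02 over all genes. *slc6a5* rose by 4.25 ± 0.16 (adjusted p = 7.3e-12) and *slc32a1*, at 727 and 697 CPM against 255 and 246 CPM, by 1.53 ± 0.13 (adjusted p = 4.4e-07). *gad2* rose by 3.67 ± 0.47 and *slc6a1b* by 1.91 ± 0.55. Of 10 tested members 7 were higher and 1 lower among the V1 identity factors, median 2.67. The 7 include *foxd3*, known beforehand from these data, and *en1a*, whose UMIs came from 1 and 2 cells. This count therefore does not test the name of the cells. *pax2a* rose by 3.75 ± 0.24 (adjusted p = 9.8e-09), *pax5* by 4.69 ± 0.48 and *pax2b* by 1.59 ± 0.24, all paired-box genes. *lhx5*, a LIM-homeodomain gene that V0v cells share, was the 1 lower member, with 242 and 312 CPM against 373 and 468 CPM and a change of -0.54 ± 0.14 (adjusted p = 0.018). Of 10 tested members 2 were higher and 4 lower among the V0v genes. The lower ones were *skor2* (-3.33 ± 0.36), a transcriptional corepressor gene, *ebf3a* (-0.75 ± 0.18), *uncx* (-2.03 ± 0.37) and the intermediate filament gene *inab* (-1.14 ± 0.17), and the higher ones were the neurofilament genes *nefma* and *nefmb*. The call for *nefma* was lost with DESeq2 (adjusted p = 0.13) and without the library term (adjusted p = 0.070).

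Against hmx cells, 410 genes were higher and 304 lower in V1-like cells (714 of 8246, 8.66%; 4.97% higher and 3.69% lower). DESeq2 called 367 higher and 169 lower, and without the library term edgeR called 352 genes. Hmx2 and Hmx3a are homeodomain factors found in V1 and dI2 neurons of zebrafish. The authors also reported both genes as raised in V0v cells of these libraries that they took to be *evx1*/*evx2* mutant cells. Which of these the hmx cells are was not tested. The comparison thus sets V1-like cells beside cells with an hmx gene and no UMI of *en1b* or of the 5 excluded genes. The rises included *nxph2a*, a neurexophilin ligand of neurexins, with 73.2 and 55.3 CPM against 0.49 and 1.48 CPM and a change of 5.97 ± 0.73 (adjusted p = 4.5e-05). *adarb2* had 4.41 and 10.9 CPM in hmx cells and was higher in V1-like cells by 4.95 ± 0.34, and *npy2r* by 4.44 ± 0.41. *hs6st1a*, which sulfates heparan sulfate, was held by 20 of 52 and 58 of 118 V1-like cells, with 175 and 299 CPM against 14.7 and 12.4 CPM and a change of 4.22 ± 0.28 (adjusted p = 6.0e-08). *mafaa*, a Maf factor, rose by 4.29 ± 0.63 with 124 and 49.2 CPM against 1.96 and 5.94 CPM. *calb2a*, a calretinin gene, rested on 3 and 2 cells and *sdr16c5b* on 6 and 4. Of the 10 tested V1 identity factors, 6 were higher and 2 lower against hmx cells, median 1.66, and 6 higher and 0 lower against other-fate cells, median 1.81. *foxd3* and *en1a* are again among the higher ones in both comparisons. The lower ones were *lhx1a* (-0.56 ± 0.12, adjusted p = 0.0053) and *lhx5* (-0.66 ± 0.14, adjusted p = 0.0055), LIM-homeodomain genes of many ventral neurons. *foxd3* rose by 3.60 ± 0.40 (adjusted p = 1.4e-05) against hmx cells, where its 119.7 CPM in library 2 was the highest level outside the V1-like cells.

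The 8 lowest genes against hmx cells again had 0 UMIs in V1-like cells. *mdga1*, a cell adhesion gene, was at least 19.1-fold lower, *tmeff2b* at least 18.1-fold, *cacna1g*, a T-type calcium channel gene, at least 8.08-fold and *tfap2a* at least 7.04-fold. The call for *tfap2a* was lost without the library term (adjusted p = 0.053). *CU179656.1*, *CR847531.1*, *nrip2* and *LOC101883326* completed the set. Among genes with UMIs in both gates, *otpa*, a homeodomain gene, had 377 and 207 CPM in V1-like cells against 4838 and 4506 CPM in hmx cells, a change of -4.06 ± 0.30 (adjusted p = 1.3e-07). Of the 11 tested glycine and GABA genes, 4 were higher and 2 lower against hmx cells. *slc6a5* was higher by 2.07 ± 0.15 (adjusted p = 1.3e-07) and *gad2* by 1.53 ± 0.40, and *gad1a* and *slc6a9*, the GlyT1 glycine transporter gene, were the other higher members. *slc6a1b* had 45.1 and 34.8 CPM against 491 and 419.6 CPM, a change of -3.59 ± 0.37 (adjusted p = 5.5e-06), and *gad1b*, with 5 UMIs in V1-like cells, changed by -2.36 ± 0.51.

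Against other-fate cells, 190 genes were higher and 119 lower in V1-like cells (309 of 8246, 3.75%; 2.3% higher and 1.44% lower). Without the library term edgeR called 119 genes, and DESeq2 called 246. These cells hold glycine and GABA genes themselves, and 3 of the 11 tested glycine and GABA genes were higher in V1-like cells and 0 lower. *slc6a5* was higher by 0.76 ± 0.13 (adjusted p = 0.0018) and *slc32a1* by 0.48 ± 0.12 (adjusted p = 0.034), and both calls were lost without the library term (adjusted p = 0.23 and 0.20). The *slc32a1* call was also lost with no filter on low counts (adjusted p = 0.0996) and with no upper limits on genes and UMIs (adjusted p = 0.37). *foxd3* was higher by 7.92 ± 0.65 (adjusted p = 9.6e-07). *npy2r* had 110 UMIs in V1-like cells and 2 in other-fate cells, a ratio of 155 (95% interval 42.0 to 1298). *adarb2* had 152 UMIs and 2 UMIs, a ratio of 214 (95% interval 58.4 to 1787). Unlike the fit, these ratios pool UMIs over both other-fate gates and both libraries. Their intervals cover counting error only. *grin2bb*, a subunit of NMDA-type glutamate receptors, had 107 and 105 CPM against 3.68 and 4.62 CPM in V2b/KA-like and 11.8 and 5.45 CPM in dI6/dI4-like cells, a change of 4.2 ± 0.44 (adjusted p = 1.6e-05). *nxph2a* (6.35 ± 0.94), *htr1aa* (6.68 ± 1.03), *penkb* (6.19 ± 0.81) and *si:dkey-183i3.9* (7.32 ± 0.92) were also higher, as were *lum*, *pdgfrl*, *cxcl12a* and *dcn*, which are taken up with the collagen genes.

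The lower genes in that comparison kept a few UMIs in V1-like cells. *nkx1.2lb*, an NK-class homeobox gene, had 78.9 and 59.4 CPM in V1-like cells, against 548 and 1112 CPM in V2b/KA-like and 1172 and 1552 CPM in dI6/dI4-like cells, a change of -4.17 ± 0.21 (adjusted p = 1.4e-09). *calb2b*, the other calretinin gene, had 129.6 and 55.3 CPM, against 463 and 624 CPM and 968 and 1025 CPM, and fell by 3.29 on the log2 scale. The Iroquois genes of ventral patterning were lower as well, *irx2a* (-3.56 ± 0.58), *irx3b* (-2.74 ± 0.32) and *irx1a* (-2.25 ± 0.32). *islr2* had 1 UMI in V1-like cells and 144 in other-fate cells, which is 51.0 (95% interval 9.01 to 2029) times lower by counting error, and *fzd1*, a Wnt receptor gene, had 3 and 67 UMIs, 7.91 (95% interval 2.59 to 39.3) times lower. Both ratios again pool UMIs over both gates and both libraries. *slbp*, a histone mRNA-binding protein gene, changed by -2.40 ± 0.36. Against V2b/KA-like cells alone 163 genes were higher and 275 lower, and against dI6/dI4-like cells alone 168 and 116.

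**Figure D4:**
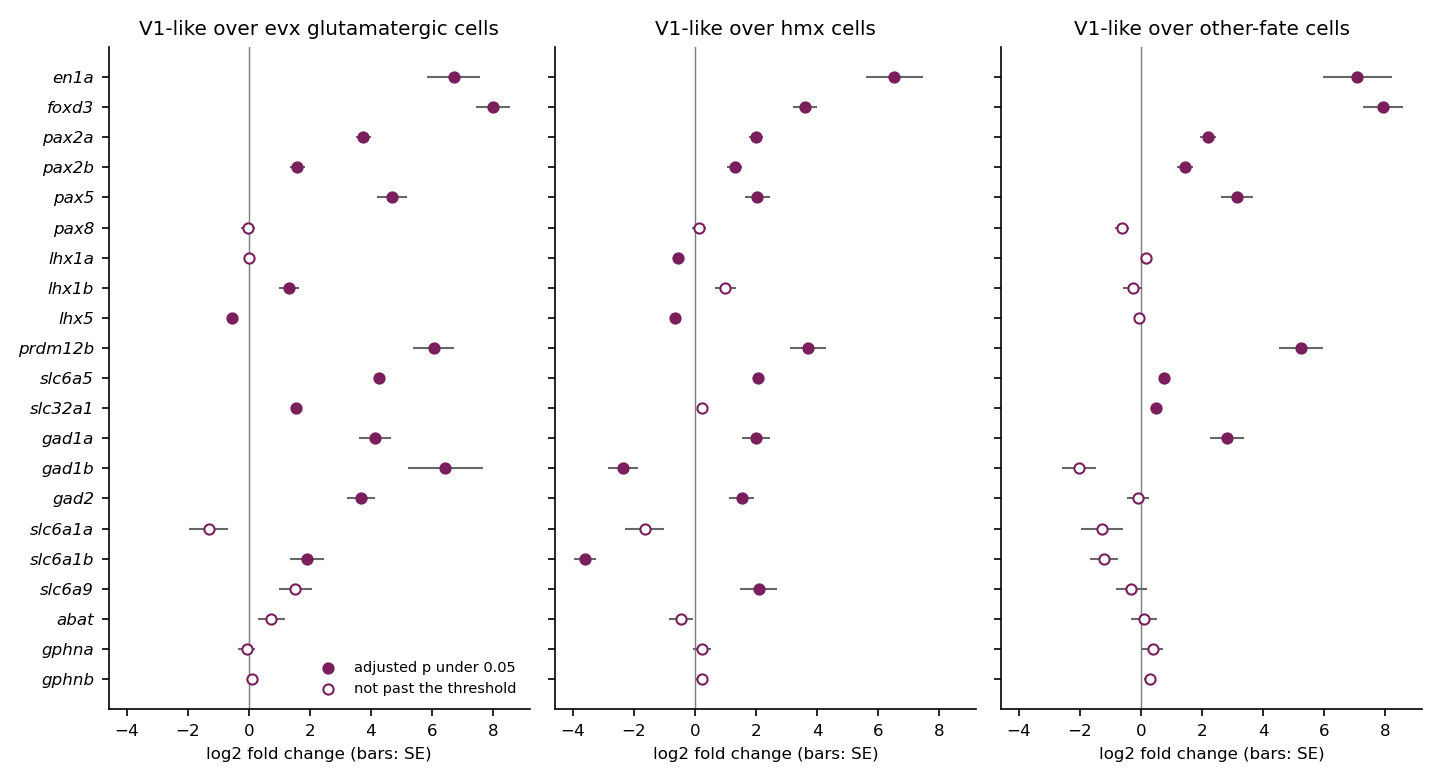
Log2 fold change of V1-like over evx glutamatergic, hmx and other-fate cells (x axes, bars are SE) for the tested V1 identity factors and the glycine and GABA genes (rows), with filled points where edgeR's adjusted p was under 0.05. *foxd3*, *pax2a*, *pax2b*, *pax5*, *prdm12b*, *slc6a5* and *gad1a* are filled on the right of 0 in each panel, *lhx5* is filled on the left against evx glutamatergic and hmx cells and *lhx1a* against hmx cells, and *en1a*, also filled, rests on 3 cells. *slc6a1b* and *gad1b* lie on opposite sides of 0 in the first 2 panels.

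The 3 comparisons share the V1-like sums, so their overlap is no independent evidence. In all 3, 107 of the 8246 tested genes were higher and 41 lower. The 107 include *col1a1b*, *col1a2*, *lum*, *dcn*, *pdgfrl*, *cxcl12a* and *en1a*, which are taken up with the collagen genes below. The overlap without the cells holding collagen was not taken. List counts below are to be read beside the shares of all tested genes. In the order evx glutamatergic, hmx and other-fate, these were 5.54%, 4.97% and 2.3% higher and 3.49%, 3.69% and 1.44% lower. *nr5a2*, a nuclear receptor gene of a mouse V1 subset, differed in direction between references. It had 107 and 221 CPM in V1-like cells, 26.4 and 20.8 CPM in hmx cells and 274 and 369 CPM in evx glutamatergic cells. Its change was 2.93 ± 0.27 (adjusted p = 1.4e-06) against hmx cells and -0.83 ± 0.21 (adjusted p = 0.015) against evx glutamatergic cells. The second call was lost with DESeq2 (adjusted p = 0.12) and without the library term (adjusted p = 0.11). It was also lost after thinning to 2000 UMIs (adjusted p = 0.096) and without the V1-like cells holding *dla*, *dlb* or *neurod4* (adjusted p = 0.066). Of the 20 tested factors of mouse V1 subtypes, 6, 4 and 5 were higher against evx glutamatergic, hmx and other-fate cells and 5, 6 and 2 lower, with medians of 0.81, -0.02 and 0.16 beside -0.02, -0.01 and -0.01 over all genes. *foxp4* was higher in each, and *otpa* and *esrrb*, an orphan nuclear receptor gene, were lower in each. *esrrb* had 78.9 and 205 CPM, against 398 and 663 CPM in evx glutamatergic and 592 and 746 CPM in dI6/dI4-like cells. The factors with most UMIs in V1-like cells were *zfhx4* (727 and 1076 CPM), *otpb* (237 and 621 CPM), *onecut1* (524 and 291 CPM) and *otpa*. *onecut1*, which marks Renshaw cells in mouse, changed by -1.12 ± 0.17 (adjusted p = 0.00029) against hmx cells and by 0.77 ± 0.18 (adjusted p = 0.016) against other-fate cells. *mafba*, whose mouse counterpart is also a Renshaw cell factor, changed by -1.61 ± 0.22 (adjusted p = 8.9e-05) against evx glutamatergic cells.

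*chrna2a*, a nicotinic acetylcholine receptor subunit gene whose mouse counterpart marks Renshaw cells, had 411 and 489.9 CPM in 21 of 52 and 48 of 118 V1-like cells. It was 142 and 135 CPM in evx glutamatergic cells, 209.6 and 175 CPM in hmx cells, 88.2 and 37.0 CPM in V2b/KA-like cells and 98.0 and 76.3 CPM in dI6/dI4-like cells. It was called higher in each comparison, at 1.79 ± 0.18 (adjusted p = 2.2e-06), 1.34 ± 0.18 (adjusted p = 9.0e-05) and 2.69 ± 0.20 (adjusted p = 2.3e-07), and was singled out after its values were seen. Of the glycine and GABA receptor genes, 2 were higher and 3 lower against hmx cells (7 tested), and *glra1*, the glycine receptor subunit with most UMIs after *glrbb*, had 175 and 248 CPM against 64.1 and 134 CPM (1.16 ± 0.24). *grin1a*, the obligate NMDA receptor subunit gene, was higher in V1-like than in evx glutamatergic cells by 1.70 ± 0.21 (adjusted p = 2.4e-05). The potassium channel gene *kcnc3a* of the fast-spiking Kv3 family was higher by 0.92 ± 0.26 (adjusted p = 0.028) than in evx glutamatergic cells. In that comparison 2 of 7 tested potassium channels were higher and 0 lower. Against hmx cells 0 of the 7 were higher and 1 lower (*kcna3a*), and against other-fate cells 0 were called. The list summed to 710 and 633 CPM in V1-like cells, 445 and 470 CPM in evx glutamatergic cells and 717 and 866 CPM in hmx cells.

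*gap43*, the growth-cone protein gene, had 546 and 387 CPM in V1-like cells, against 2303 and 2065 CPM in evx glutamatergic cells, 1817 and 1672 CPM in hmx cells, 1169 and 802 CPM in V2b/KA-like cells and 933 and 752 CPM in dI6/dI4-like cells. Its changes were -2.23 ± 0.12 (adjusted p = 9.3e-10), -1.89 ± 0.12 (adjusted p = 5.9e-08) and -1.04 ± 0.12 (adjusted p = 3.5e-05), and it too was singled out after its values were seen. The tubulin gene *tubb5* and *stmn1b*, a microtubule regulator, were lower in all 3 comparisons, with changes of -1.80 ± 0.11, -1.06 ± 0.11 and -0.87 ± 0.11 for *tubb5*. Of 11 tested members 0 were higher and 5 lower among the pan-neuronal genes against evx glutamatergic cells, median -0.42, and *snap25a*, a synaptic vesicle fusion gene, was called higher against other-fate cells (0.52 ± 0.14). Of the 17 tested axon guidance genes, 2, 3 and 2 were higher and 0, 1 and 1 lower. Over all genes, 5.54%, 4.97% and 2.3% were higher and 3.49%, 3.69% and 1.44% lower. *slit3*, of the Slit family of secreted axon repellents, was higher in each, by 2.37 ± 0.27, 2.04 ± 0.27 and 1.1 ± 0.27, at 39.4 and 105 CPM in V1-like cells. The receptor gene *robo3*, which commissural neurons need for midline crossing, had 175 and 201 CPM, against 203 and 288 CPM in evx glutamatergic cells, and passed no test.

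Genes of neuronal differentiation and of progenitors were higher in V1-like cells than in evx glutamatergic and hmx cells. The *elavl3* cells in no gate (1804 and 1447) were similar to V1-like cells. The list summed to 732 and 1060 CPM in V1-like cells and 753 and 1101 CPM in those cells. The evx glutamatergic gate required a glutamate transporter gene and the hmx gate an hmx gene. The part of these choices in the differences was not tested. Of the 12 tested, 8 were higher and 0 lower against evx glutamatergic cells, median 2.78, and 7 were higher and 0 lower against hmx cells, median 2.24. The Notch ligand gene *dla* had 45.1 and 156 CPM in V1-like cells, against 3.89 and 2.63 CPM in evx glutamatergic cells and 4.90 and 24.7 CPM in hmx cells. The levels in V2b/KA-like cells (62.5 and 62.4 CPM) and dI6/dI4-like cells (74.5 and 110.0 CPM) lay nearer. Against other-fate cells 0 of these genes were higher and 1 lower (*insm1a*), median -0.02. *prdm12b*, a p1 and V1 factor that promotes V1 over V0 fate in fish and frog, had 39.4 and 115 CPM in 2 of 52 and 10 of 118 V1-like cells and at most 10.9 CPM in the other 4 gates. It was called higher in all 3, at 6.05 ± 0.68 (adjusted p = 8.3e-06), 3.70 ± 0.57 (adjusted p = 0.00036) and 5.24 ± 0.72 (adjusted p = 0.00026).

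These genes were found in few V1-like cells. A UMI of *dla*, *dlb* or the proneural gene *neurod4* was held by 7 and 18 V1-like cells, a division chosen after its values were seen and given without a test. *prdm12b* had 349 and 698 CPM in these cells, against 0 and 7.28 CPM in the other 45 and 100 V1-like cells. *otpb* had 1046 and 1329.8 CPM against 133 and 490.4 CPM, *bhlhe22* 398 and 698 CPM against 88.9 and 31.6 CPM, and the progenitor gene *sox3* 697 and 434 CPM against 6.35 and 9.71 CPM. The Notch target *her4.2* had 99.6 and 1488 CPM against 19.1 and 2.43 CPM, in 1 and 14 cells. In both libraries *prdm12b*, *otpb*, *bhlhe22* and *sox3* were thus higher where *dla*, *dlb* or *neurod4* was present. In library 1, *prdm12b* and *bhlhe22* rested on 2 such cells each. *her4.2* was higher there in library 2, while in library 1 it had only 2 UMIs in 1 cell, against 3 UMIs in 1 cell. Mature transmitter and synaptic genes were low in the same cells. *slc6a5* had 0 and 118 CPM with the 3 genes, against 1385 and 1571 CPM without. *snap25a* had 49.8 and 197 CPM against 2738 and 1634 CPM, *elavl4* 99.6 and 329 CPM against 1232 and 1767 CPM, and *grin1a* 0 and 39.5 CPM against 387 and 335 CPM. *slc6a5* and *dlb* were found together in 0 and 3 cells, of the 35 and 88 with *slc6a5* and the 7 and 16 with *dlb*. *foxd3* and *pax2a* were present on both sides, *foxd3* at 647 and 974 CPM against 629 and 660.3 CPM and *pax2a* at 598 and 816 CPM against 203 and 418 CPM. Median depth was 2558 and 4333 UMIs with the 3 genes and 3354 and 3926 UMIs without. Against other-fate cells, 570 genes were called once these V1-like cells were left out, and *prdm12b* was no longer expressed highly enough to be tested. Other-fate cells with the 3 genes were kept in that setting.

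Neurofilament and opioid peptide genes marked another minority. *nefma* or *nefmb*, which encode neurofilament proteins, were held by 19 and 16 V1-like cells, again a division chosen after its values were seen. *penkb* had 6874 and 1834 CPM in these cells, against 0 and 30.9 CPM in the other 33 and 102. All 9 *penkb* cells of library 1 and 5 of the 6 of library 2 held *nefmb*. *penkb* UMIs were concentrated, with 58.4% and 86.1% of them in the 3 highest cells, and its level differed between libraries (2806 and 281 CPM). *pnoca*, a prepronociceptin gene of the same peptide family, had 787 and 458 CPM against 9.52 and 0 CPM. *snap25a* had 4693 and 3844 CPM against 876 and 1018 CPM, *kcnc3a* 497 and 828 CPM against 181 and 136 CPM, *onecut1* 842 and 902 CPM against 305 and 193 CPM and *hmx2* 304 and 488 CPM against 38.1 and 85.7 CPM. *pax2a* was lower, at 96.6 and 88.7 CPM against 352 and 543 CPM, as was *otpb*, at 27.6 and 0 CPM against 381 and 721 CPM. *foxd3* was found on both sides, at 676 and 725 CPM against 599.7 and 707 CPM. Median depth was 3839 and 4210.5 UMIs with a neurofilament gene and 2679 and 3926 UMIs without, so that depth and the division cannot be told apart. *dlb* and *nefmb* were found together in 0 cells of either library, of the 7 and 16 with *dlb* and the 13 and 10 with *nefmb*. These numbers are too small to show that the 2 genes exclude each other.

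*hmx2* or *hmx3a* was held by 31 and 64 V1-like cells (59.6%, interval 45.1 to 73.0, and 54.2%, interval 44.8 to 63.4). *hmx3a* had 214 and 305 CPM in V1-like cells, against 47.8 and 16.2 CPM in V2b/KA-like and 31.3 and 10.9 CPM in dI6/dI4-like cells, 2 gates that were not formed by it. After thinning, 36.2% and 36.3% of V1-like cells held it, against 3.28% and 3.37% of V2b/KA-like cells and 4.84% and 1.45% of dI6/dI4-like cells. The V1-like cells were higher in both libraries and the values did not overlap, but as a gate gene it was not tested. Within V1-like cells, those with an hmx gene had 1639 and 1735 CPM of *slc6a5*, against 531 and 884 CPM in those without. *slc32a1* had 968 and 890.4 CPM against 319 and 469 CPM, and *foxd3* 779 and 962 CPM against 379.5 and 411 CPM. Cells with an hmx gene were also deeper, with medians of 3837 and 4116.5 UMIs against 2689 and 3760.5 UMIs. Of the 12 cells with *prdm12b*, 0 held an hmx gene.

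*evx1* or *evx2*, the genes mutated in the parents, had a UMI in 14 and 20 V1-like cells (26.9%, interval 15.6 to 41.0, and 16.9%, interval 10.7 to 25). *evx1* had 113 and 88.1 CPM in V1-like cells, against 131 and 119 CPM in hmx cells and 74.5 and 80.6 CPM in dI6/dI4-like cells. *evx2* had 28.2 and 94.3 CPM, against 54.9 and 133 CPM in dI6/dI4-like cells, and 0 and 0.744 CPM in fibroblast-gated cells. Few of the *evx2* cells among the V1-like cells held other V1 genes. Of the 5 and 10 such cells, 0 and 1 held *foxd3*, 1 and 1 held *slc6a5*, 4 and 10 held *otpa*, and 2 and 5 held *slc17a6a*. Among cells with either evx gene, *pax2a* had 52.6 and 76.7 CPM, against 340.5 and 589 CPM in the rest. *uncx*, a homeobox gene of V0v cells, had 350.4 and 86.3 CPM against 24.9 and 7.82 CPM, *otpa* 473 and 767 CPM against 332 and 54.8 CPM, and *slc17a6a* 70.08 and 86.3 CPM against 16.6 and 7.82 CPM. *gad2* was found in 0 and 0 of the evx cells, and in 2 and 21 of the others. A UMI of both an evx gene and *slc6a5* was held by 7 and 11 cells. Cells with an evx gene had medians of 3840.5 and 4988.5 UMIs, against 2901 and 3719.5 UMIs in those without, and whether doublets contributed was not tested.

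**Figure D5:**
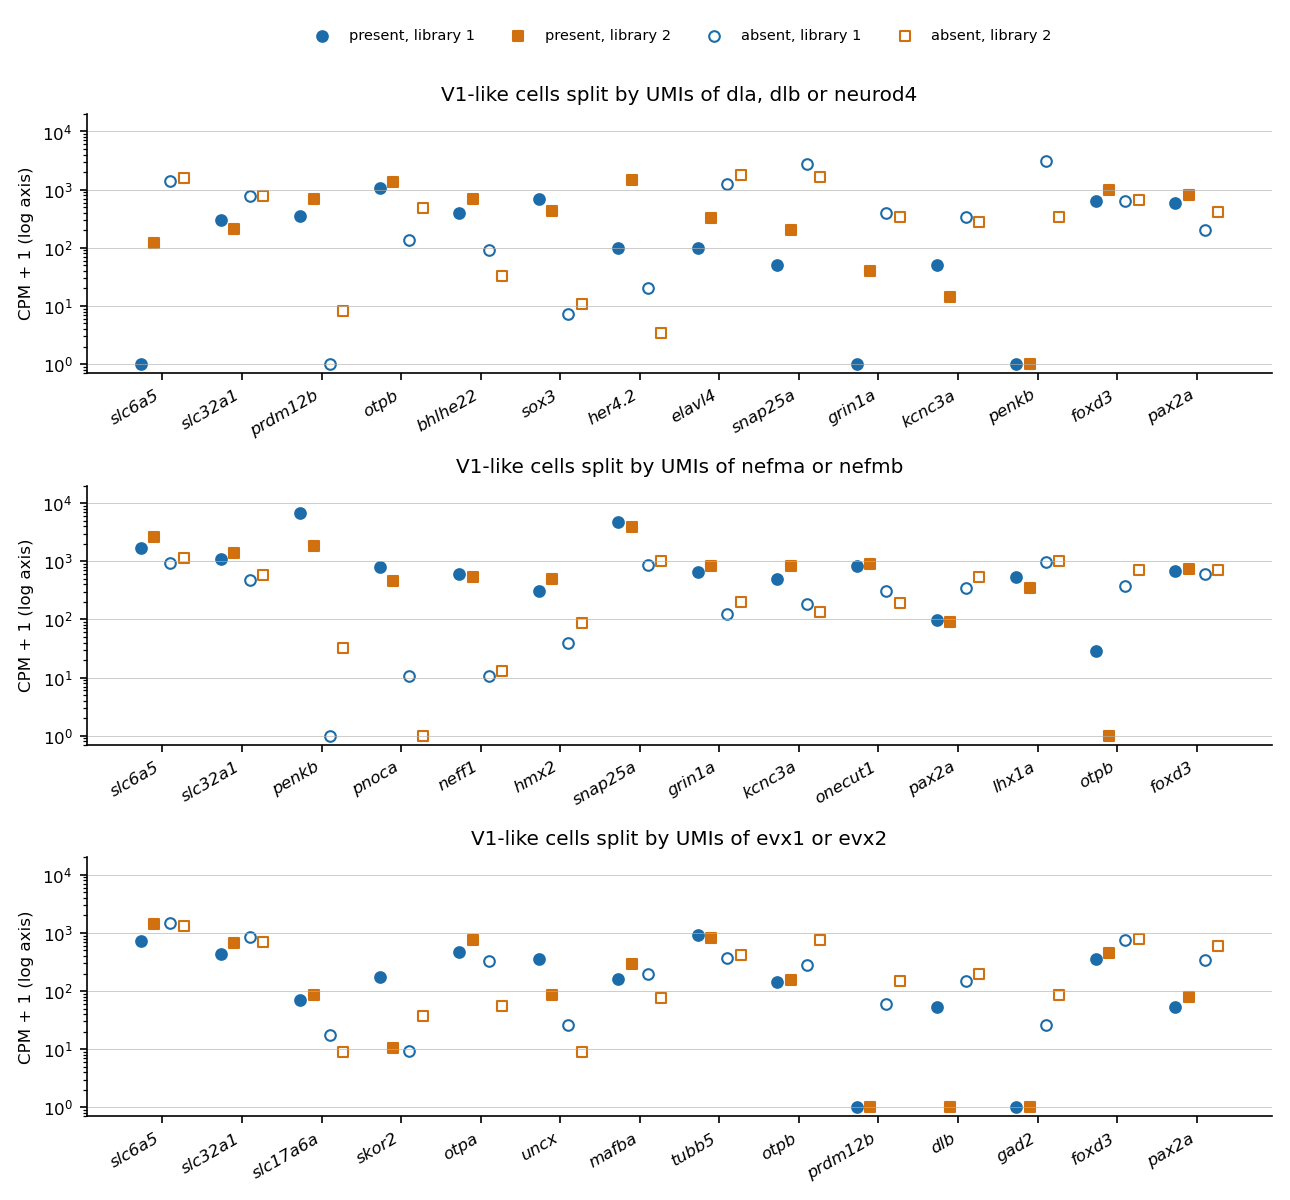
Level of genes (y axes, CPM plus 1 on a log axis) within V1-like cells that hold (filled points) or lack (open points) UMIs of *dla*, *dlb* or *neurod4* (top), of *nefma* or *nefmb* (middle) and of *evx1* or *evx2* (bottom), by library. *slc6a5* is low where *dla*, *dlb* or *neurod4* is present (0 and 118 CPM), *penkb* is high where neurofilament genes are present, and *pax2a* is low where an evx gene is present.

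*foxd3* itself divided the V1-like cells in a related way. The 34 and 82 V1-like cells with *foxd3* had 1565 and 1583 CPM of *slc6a5*, against 672 and 829 CPM in the 18 and 36 without. *evx2* had 0 and 3 CPM against 74.7 and 291 CPM, and *otpa* 190.0 and 123 CPM against 687 and 389 CPM. Median depth was 3135.5 and 4041.5 UMIs with *foxd3*, against 3422.5 and 4021 UMIs without. By *slc6a5* itself, the 35 and 88 cells with a UMI had 1445 and 1519 CPM of *en1b*, against 649 and 681 CPM in the 17 and 30 without. *glra1* had 252 and 313 CPM against 17.1 and 86.0 CPM, and *znf385c*, a zinc finger gene, 159.7 and 261 CPM against 17.1 and 14.3 CPM. Cells with *gad1b*, *gad2* or *slc6a1b* (8 and 29) held *dla* in 0 and 0 cells, against 3 and 13 of the others. They held *dlb* in 1 and 2 cells, against 6 and 14, and *her4.2* in 1 and 2 cells, against 1 and 13. These numbers are too small to show that GABA genes and *dla* exclude each other.

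Collagen and other fibroblast genes were called higher in V1-like cells, 4, 4 and 3 of the 5 markers in the 3 comparisons. The 5 markers summed to 569 and 445 CPM in V1-like cells, against 41.9 and 40.9 CPM in evx glutamatergic cells and 9866 and 9843 CPM in fibroblast-gated cells. The signal came from 1 and 2 cells with at least 5 collagen UMIs, which held 98.8% and 94.0% of the collagen UMIs of all V1-like cells. The same 3 cells held all 9 and 25 UMIs of *en1a*, the paralog of *en1b*, had 4 to 14 *en1b* UMIs each and 3 to 8 *elavl3* UMIs, and held neither *foxd3* nor *slc6a5*. Their totals were 6996 to 9466 UMIs, above the V1-like medians. Without them, a setting added after the data were seen, *cxcl12a*, *lum*, *pdgfrl*, *dcn* and *en1a* were too low to be tested, *col1a1a*, *col1a1b* and *col1a2* passed no test, and 692, 682 and 332 genes were called in the comparisons with evx glutamatergic, hmx and other-fate cells. Whether these 3 cells are doublets was not tested.

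In each comparison most cadherin genes passed no test. Of 13 tested cadherins and protocadherins, 3, 4 and 3 were higher in V1-like cells than in evx glutamatergic, hmx and other-fate cells and 0, 1 and 0 lower, where 5.54%, 4.97% and 2.3% of all genes were higher, medians 0.36, 0.65 and 0.34. *cdh18a*, a type II cadherin gene, had 39.4 and 73.8 CPM in V1-like cells, against 3.92 and 10.9 CPM in hmx cells, a change of 3.04 ± 0.36 (adjusted p = 2.3e-05). *pcdh17*, a protocadherin gene and the most abundant of the list, had 175 and 295 CPM in V1-like cells against 106 and 123 CPM in hmx cells, a change of 1.14 ± 0.18 (adjusted p = 0.00033). Of 7 tested neuropeptide genes, 3, 2 and 1 were higher and 1, 2 and 1 lower. *adcyap1b*, which encodes the peptide PACAP, was lower in each, with 33.8 and 28.7 CPM in V1-like cells, 192 and 224 CPM in evx glutamatergic cells and 49.0 and 130.1 CPM in hmx cells. Of the 17 neuropeptide genes, 11 had 0 UMIs in V1-like cells, among them *npy*, *pdyn*, *tac1* and *vip*. Of 5 tested factors of p1 and p0 progenitors, 0 were higher in any comparison and 0, 1 and 3 lower. The whole list summed to 50.7 and 30.7 CPM in V1-like cells and 32.1 and 54.5 CPM in evx glutamatergic cells. It summed to 69.5 and 73.2 CPM in hmx, 107 and 120 CPM in V2b/KA-like and 231 and 219 CPM in dI6/dI4-like cells. *nkx6.1* and *nkx6.2*, homeodomain genes of ventral progenitors, had 0 UMIs in V1-like cells.

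The heat-shock and immediate early genes summed to 26664 and 4206 CPM in V1-like cells, against 19832 and 3320 CPM in evx glutamatergic, 28266 and 3863 CPM in hmx, 21031 and 4317 CPM in V2b/KA-like and 25497 and 4275 CPM in dI6/dI4-like cells. Of 16 tested heat-shock and immediate early genes, 8, 2 and 0 were higher in V1-like cells than in evx glutamatergic, hmx and other-fate cells and 0 were lower in any. Their part in the other differences from evx glutamatergic cells was not tested. Those higher than in evx glutamatergic cells included *fosab*, with 608 and 465 CPM against 233 and 162 CPM (1.45 ± 0.18), and *atf3*, with 383 and 215 CPM against 142 and 59.8 CPM (1.64 ± 0.25). *hsp70l* itself was higher by 0.76 ± 0.17 (adjusted p = 0.0084). Of 28 tested hox genes, 5, 5 and 0 were higher and 1, 1 and 1 lower, medians 0.09, 0.07 and -0.10. Over all genes, 5.54%, 4.97% and 2.3% were higher in these comparisons. *hoxb6b*, a gene of trunk position, had 163 and 365 CPM, against 100.3 and 144 CPM in evx glutamatergic cells (1.22 ± 0.19), while the most abundant, *hoxb9a*, had 1284 and 1490.1 CPM against 1009.6 and 1362 CPM and passed none of these 3 tests.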

How the data were processed

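In all, 2 10x droplet libraries of FAC-sorted EGFP+ trunk cells were read. The deposited values were raw UMI counts of each gene in each cell. The authors obtained them from reads with Cell Ranger 4.0.0 and the Lawson Lab zebrafish annotation, and used Partek downstream. The reference build is not given in the sources used here. Members and gene lists were chosen with earlier results of these data known. UMIs of each gate and library were summed, and the 10 sums (5 gates in 2 libraries) were fitted in 1 model with the library as a term. The fit used edgeR 4.0.16 (quasi-likelihood test, TMM, low-count filter, R 4.3.3). Benjamini-Hochberg adjustment ran over all genes past the filter, including genes used to form the gates. Those gate genes were left out afterwards, which left 8246 tested genes. The library term was used because both gates of a comparison came from the same library. The summed cells of 1 gate are not replicates, and the libraries held 177502 and 487879 UMIs of V1-like cells. DESeq2 1.42.0 was an alternative. Named genes had an adjusted p under 0.05, at least 10 UMIs per library in the higher gate and 1 direction in both libraries (the 12 highest and 8 lowest), beside the list members with most UMIs; some named by this rule are not reported here. The authors used scatter gates against doublets in the sort, and multiplets were removed here by the upper limits alone, with no doublet caller. Scripts were tested on simulated data.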

Additional observations from a re-analysis of the deposited data

How the results depend on the processing

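Counts of genes called against evx glutamatergic, hmx and other-fate cells were 745, 714 and 309. With no replicate block, that is without the library term that pairs the gates of a library, they were 439, 352 and 119, all among the genes called with it. Cells thinned to 2000 UMIs gave 434, 471 and 197, and no upper limits on genes and UMIs gave 1218, 1259 and 749, with 926, 888 and 621 higher. Without the V1-like cells holding *dla*, *dlb* or *neurod4*, a setting added after the data were seen, 570 genes were called against other-fate cells. Other-fate cells holding these genes were kept, so that the 2 sides of this comparison were not filtered alike. DESeq2 moved the share of higher calls to 72.1% against 61.3% (evx glutamatergic) and to 68.5% against 57.4% (hmx). With at least 2 *en1b* UMIs the V1-like share of *elavl3* cells in library 2 was 2.98%, and *dla* against other-fate cells, which passed no test, had a log2 fold change of -0.46, against 0.52 with the full rule. Over 97 gene results and 11 settings with a test, 1000 values kept their direction and side of the threshold, 27 lost the call, 1 changed direction and 39 could not be computed because the gene fell under a filter or the setting removed its cells. The 97 were the genes named for their largest changes and further chosen genes, 93 of them past the threshold in the main fit. They do not stand for all called genes. Leaving out either library left no test, since each gate then had 1 sum, and 69 (without library 1) and 75 (without library 2) of the 97 fold changes, then taken as log2(CPM + 10) differences, which shrink low genes, moved by more than the spread between libraries. Depth limited the V1-like sums in library 1 most, with 177502 UMIs.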

Other observations

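*otpa* and *otpb*, paralogous homeodomain genes, were also read cell by cell in V1-like cells. *otpb* was held by 15 and 33 V1-like cells (library 1 and library 2), and 6 and 14 of the 7 and 16 cells with *dlb* held it. All 10 *evx2* cells of library 2 and 4 of the 5 of library 1 held *otpa*. *hmx2* and *evx2* were found together in 0 cells of either library, of the 15 and 30 with *hmx2* and the 5 and 10 with *evx2*. *hmx3a* and *evx2* were found together in 1 and 0 cells. Such small numbers cannot show that these genes exclude each other. These pairs were chosen after their values were seen, and no test was made.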
